A study of Mus musculus with 8 samples.

Results

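To ask which glial and other non-neuronal cells are present in the visual cortex (VC) when astrocytes lack their main route of store-mediated calcium release, the 4 single nucleus RNA sequencing libraries of the Ip3r2 model were compared, 2 from Ip3r2 KO mice and 2 from Ip3r2 WT mice. They were chosen by the genotype label of the sample alone, and held 21240 of the 44021 nuclei of the series (11099 KO and 10141 WT) in 4 of its 8 libraries. All mice were on the C57BL/6J strain and were taken at postnatal day 14 (P14), with no treatment named. KO mice carried the Itpr2 tm1.1Chen allele, a deletion present in every cell of the animal and not in astrocytes alone. By the study's methods they came from KO × KO or het × het breeding, and WT controls were either littermates or C57BL/6J mice bred in-house. The VC of 2 mice of 1 genotype and 1 sex was pooled for each library, and each genotype had 1 male and 1 female library, so a genotype rests on 2 values and the mice within a library cannot be told apart. Nuclei were sorted for absence of the neuronal protein NeuN before barcoding with the 10x Chromium system, and the study took 1 WT and 1 KO sample through these steps in parallel on each day. The other 4 libraries, 2 of VGlut2 f/f mice (VGlut2 WT) and 2 of VGlut2 f/f mice with a RORα-driven cre (VGlut2 cKO), also at P14 and 1 of each sex, entered the fits to share 1 estimate of the spread and served for the comparison of the models.

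The type 2 IP3 receptor (IP3R2, gene Itpr2) is a channel in the membrane of the endoplasmic reticulum. When a neurotransmitter activates a G protein-coupled receptor at the astrocyte surface, IP3 is made and opens this channel, and calcium leaves the store for the cytoplasm. It is the main IP3 receptor of astrocytes, and mice without it are widely used to blunt calcium signals in the astrocyte soma. At P14 the mouse eyes have just opened, cortical synapses are forming, oligodendrocytes are starting to myelinate and astrocytes have spread through all layers.

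Libraries were of similar size. The WT libraries held 4767 (male) and 5374 (female) nuclei, and the KO libraries 5497 and 5602. Summed UMIs, the molecules counted after removal of amplification copies, were 9902659 to 12948023 per library. The median nucleus had 1882 UMIs in the male WT library, 2242 in the female WT, 2163 in the male KO and 2022.5 in the female KO, so the order of the genotypes was opposite in the sexes. Nuclei with fewer than 500 detected genes were 1.87% and 0.893% of the male and female WT libraries and 1.15% and 1.98% of the KO libraries. The table analysed gives a class for each nucleus but no gene expression, so Itpr2 itself and the marker genes of the classes were not analysed here, and the genotype labels and class names stand as the authors gave them. Of the cell barcodes, 42 occurred in more than 1 Ip3r2 library (84 nuclei, 0.395%), and in 14.3% of these barcodes the nuclei fell in 1 class, against 16.7% if their classes were independent.

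The annotation separated 17 classes once its 4 astrocyte groups were joined. In both genotypes most nuclei were astrocytes, microglia or oligodendrocyte precursor cells (OPC), with microglia the largest class in both male libraries and astrocytes in both female ones. Summed over lineages, the vascular and leptomeningeal classes took 15.9% and 14.0% of the male and female WT libraries and 17.1% and 17.2% of the KO libraries, the WT values being the lower ones in both sexes. The neuron-like classes took 2.66% and 2.74% in WT and 2.53% and 1.91% in KO, lower in KO in both sexes. The oligodendrocyte lineage took 27.6% and 31.8% in WT and 28.5% and 28.2% in KO. Microglia and macrophages took 31.3% and 21.4% in WT and 27.6% and 23.6% in KO, and the astrocyte lineage 22.5% and 30.1% in WT and 24.3% and 29.1% in KO. For microglia and macrophages and for the astrocyte lineage the male and female libraries of 1 genotype lay farther apart than KO and WT of 1 sex. The lineage sums are given as a description, with no test.

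**Figure D1:**
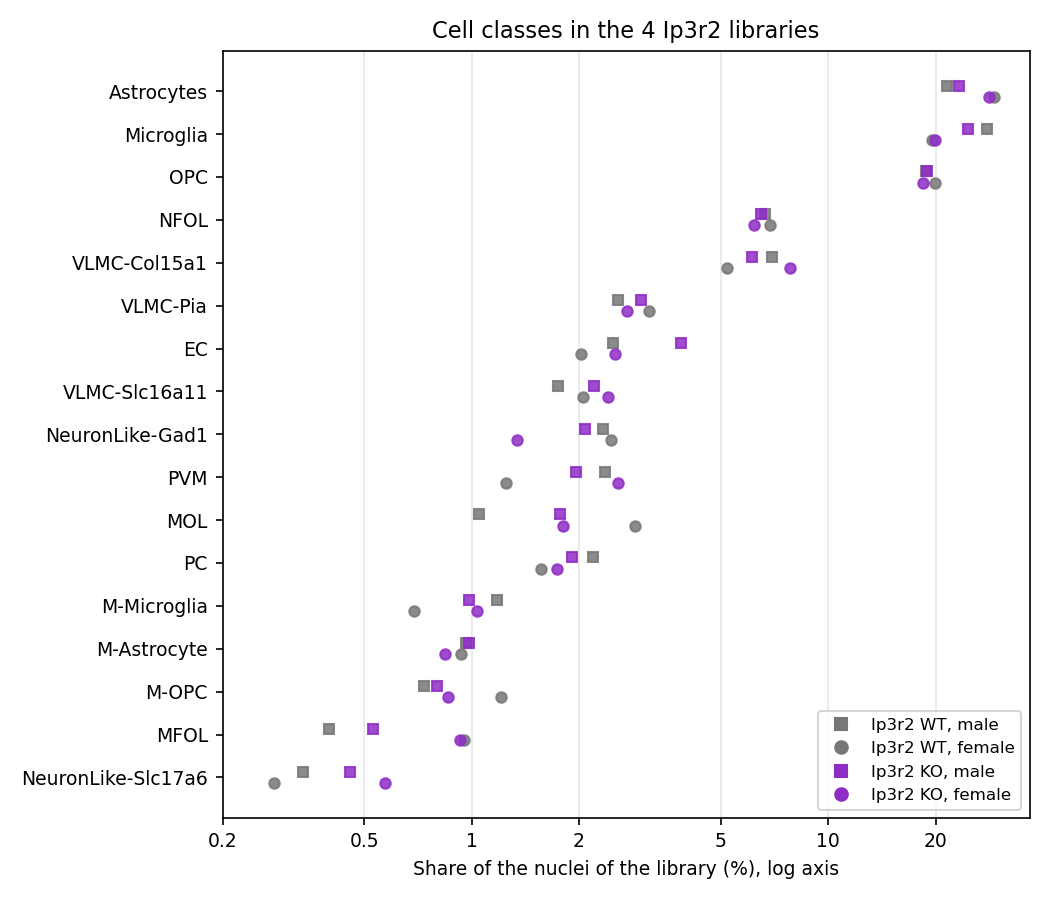
Share of the nuclei of each Ip3r2 library that fell in each of the 17 classes, in percent on a log axis; gray points are WT, purple points KO, squares male and circles female libraries. Astrocyte shares ran from 21.5% to 29.1% with both extremes in WT, and in 5 classes the purple points lie wholly to one side of the gray ones.

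No class passed the test between the genotypes. Shares were compared as log2 odds, on which scale a difference of 1 is a 2-fold change of the odds, with limma and Benjamini-Hochberg adjustment over the classes. Of the 17 classes, 0 were called at an adjusted p under 0.05 (0%), with a lowest adjusted p of 0.519 and 1 class at an unadjusted p under 0.05. The quasi-likelihood test of edgeR called 0, with 0 under an unadjusted 0.05. An exact permutation of 2 libraries against 2 cannot give a two-sided p below 0.33. The estimates ran from -0.53 to 0.72 with a median of 0.04. In 5 of the 17 classes (29.4%) the KO libraries did not overlap the WT libraries, 3 with higher and 2 with lower shares in KO. With genotype labels given at random a class would separate in this way with a probability of 0.33, so the share of 29.4% is near that value. In the other 12 classes the difference between KO and WT had opposite signs in males and females. In 12 classes the mean gap between the sexes within a genotype was larger than the difference between the genotype means. In that difference opposite signs in males and females cancel, so it is not the gap within a sex. Because sex came with a separate library in each group, sex and library cannot be told apart. Different mice went into the libraries of a genotype, but with 1 library a sex the p-values measure the spread between pools, which holds animal, sex and technical variation.

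**Figure D2:**
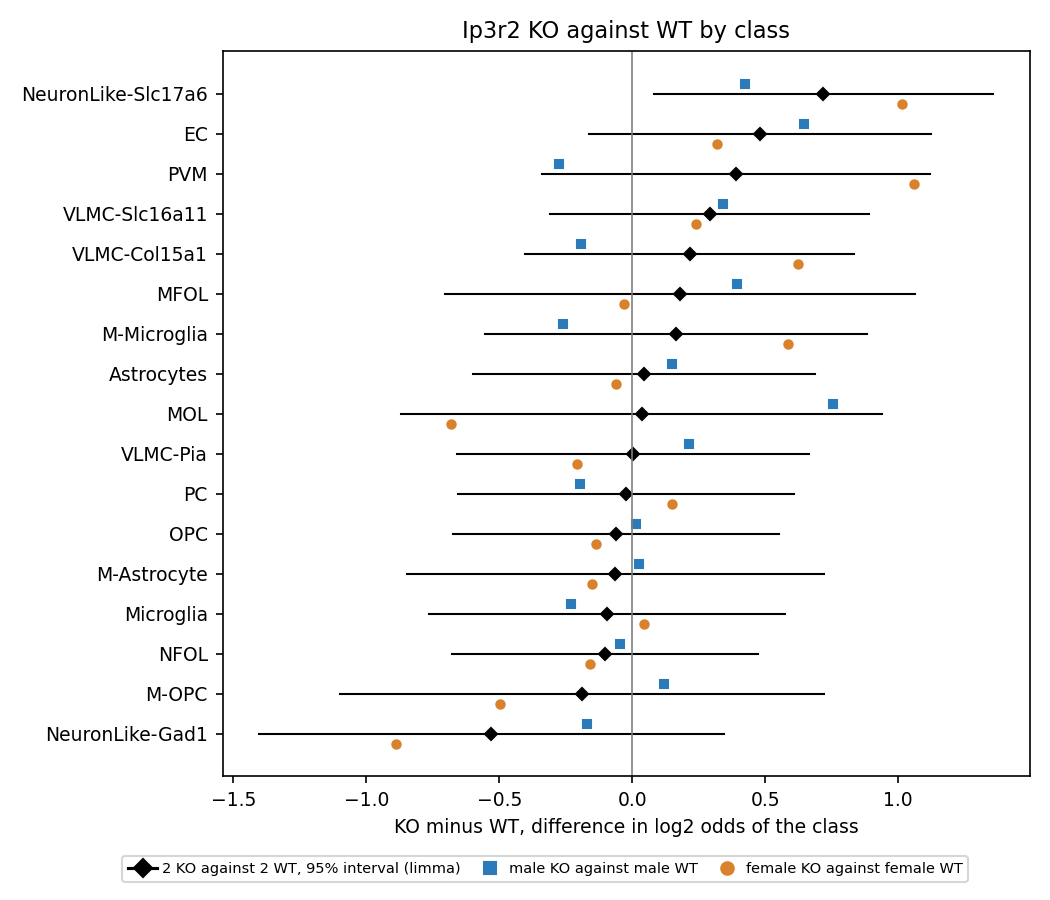
Difference between Ip3r2 KO and WT in the log2 odds of each class. Black diamonds and lines are the limma estimate and its 95% interval over 2 libraries against 2, blue squares the male and orange circles the female libraries alone. Of the 17 intervals, 16 hold 0, and the squares and circles lie on opposite sides of 0 in 12 classes.

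Astrocytes, the brain cells that rely most on IP3R2 for calcium release, had shares of the nuclei that overlapped between KO and WT. They were 21.5% of the male and 29.1% of the female WT library, and 23.3% of the male and 28.2% of the female KO library (95% Wilson intervals from 20.4% to 22.7% and 27.9% to 30.3% in WT, 22.2% to 24.5% and 27.1% to 29.4% in KO). Both KO libraries thus lay between the WT libraries. The limma difference was 0.04 (SE 0.295, 95% interval -0.60 to 0.69, adjusted p 0.994), that is, odds in KO of 1.03 times those in WT with limits of 0.66 and 1.61. Within males the log2 difference was 0.15 and within females -0.06. The limma difference was -0.25 without the male WT library, -0.14 without the female KO library, and 0.34 without the female WT library. Leaving out a library, here and below, sets 1 sex of its genotype against both sexes of the other. The shift therefore also holds the gap between the male and female libraries. As a share of the UMIs of a library, astrocytes held 25.3% and 32.3% in WT and 27.7% and 30.8% in KO. Mitotic astrocytes (M-Astrocyte), which still divide locally at this age, were 0.965% and 0.930% in WT and 0.982% and 0.839% in KO, a difference of -0.06 (-0.85 to 0.72). Of all astrocytes, 4.30% and 3.1% were mitotic in WT and 4.04% and 2.89% in KO.

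The authors divided the astrocytes into upper, mid, deep and white matter (WM) groups, which follow the depth of the cortex. In 3 of the 4 groups, mid astrocytes being the exception, KO differed from WT in opposite directions in the sexes. Upper astrocytes were 28.5% of the astrocytes in the male WT library and 49.1% in the female WT library, against 35.3% and 26.3% in the male and female KO libraries. Mid astrocytes were 34.0% and 30.9% in WT and 34.3% and 49.0% in KO. The female WT and the female KO libraries thus had opposite leading groups, with 768 upper and 484 mid nuclei in WT and 416 upper and 775 mid nuclei in KO. Deep astrocytes were 25.9% and 11.8% in WT and 19.3% and 15.7% in KO, and both KO libraries lay between the WT ones. WM astrocytes, which lie among myelinated fibers, were 11.7% and 8.18% in WT and 11.1% and 8.98% in KO.

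**Figure D3:**
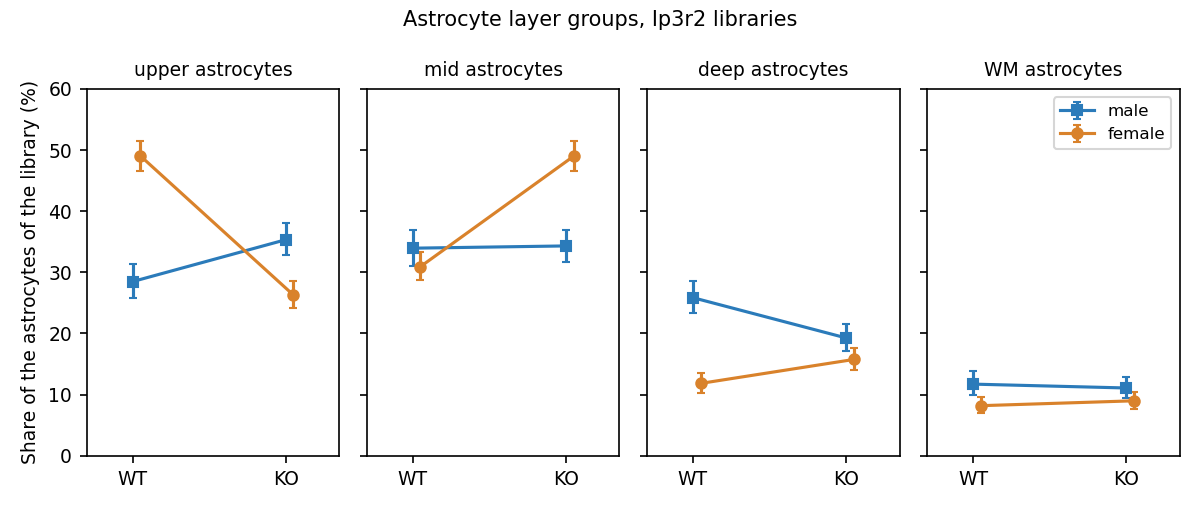
Share of the astrocytes of each Ip3r2 library that fell in the upper, mid, deep and WM groups, in percent, for WT and KO; blue squares are male and orange circles female libraries, bars are 95% Wilson intervals of the counting error, and lines join the libraries of 1 sex. From WT to KO the female upper share went from 49.1% to 26.3% and the female mid share from 30.9% to 49.0%. The male upper share went from 28.5% to 35.3% and the male mid share from 34.0% to 34.3%.

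None of the layer groups passed the limma test. Of 4 groups 0 were called (0%), with a lowest adjusted p of 0.725 and 0 at an unadjusted p under 0.05. The edgeR test gave 0 of 4, also at an unadjusted p under 0.05, with a lowest adjusted p of 0.693. The log2 difference was -0.49 for upper astrocytes (SE 0.521, -1.59 to 0.62) and 0.56 for mid astrocytes (SE 0.511, -0.52 to 1.64). For deep astrocytes it was -0.03 (SE 0.512, -1.12 to 1.05) and for WM astrocytes 0.03 (SE 0.481, -0.99 to 1.05). The mid group was the only one of the 4 (25%) whose KO libraries did not overlap the WT ones, and in males its difference was 0.02 (counting interval -0.23 to 0.27) against 1.10 (0.89 to 1.31) in females. For upper astrocytes the male and female differences were 0.46 (0.20 to 0.71) and -1.43 (-1.65 to -1.22), and for deep astrocytes -0.55 (-0.83 to -0.26) and 0.48 (0.18 to 0.77). These counting intervals cover the sampling of nuclei in 1 pair of libraries and not the variation between mice. Without the female WT library the upper estimate was 0.15, and without the male WT library it was -1.13. The deep estimate moved from 0.65 without the male WT library to -0.72 without the female WT library. The mid estimate was 1.0 without the male KO library and 0.12 without the female KO library.

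Layer groups also differed in UMIs, in the same order in all 4 libraries. Upper astrocytes had a median of 2890.5 and 2875.5 UMIs per nucleus in the male and female WT libraries and 3132 and 2693 in KO. Deep astrocytes had the lowest medians, 1808 and 1776 in WT and 1874 and 1589 in KO. Mid astrocytes stood at 2570 and 2555.5 in WT and 2786 and 2408 in KO, and WM astrocytes at 2318 and 2446 in WT and 2532.5 and 2315 in KO. In each of the 4 groups the male KO library was above the male WT library and the female KO library below the female WT library.

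The oligodendrocyte lineage runs from OPC, which divide and give rise to myelin-forming cells throughout life, over newly formed (NFOL) and myelin-forming (MFOL) to mature oligodendrocytes (MOL). OPC were among the least variable classes, at 18.8% and 19.9% of the male and female WT libraries and 18.9% and 18.5% of the KO libraries. Their difference was -0.06 (SE 0.280, -0.67 to 0.55). Mitotic OPC (M-OPC) were 0.734% and 1.21% in WT and 0.80% and 0.857% in KO. NFOL were 6.65% and 6.85% in WT and 6.46% and 6.18% in KO, below WT in both sexes by -0.05 and -0.16, and the estimate of -0.10 had an interval from -0.68 to 0.47. MFOL, the rarest stage, were 19 and 51 nuclei in WT (0.399% and 0.949%) and 29 and 52 in KO (0.528% and 0.928%).

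MOL varied most between the WT libraries. There were 50 MOL in the male WT library (1.05%) and 154 in the female WT library (2.87%), whereas the KO libraries held 97 (1.76%) and 101 (1.80%). The KO libraries therefore lay close together between the WT ones. The male difference was 0.75 (counting interval 0.26 to 1.25) and the female difference -0.68 (-1.05 to -0.32), and the limma estimate was 0.04 (-0.87 to 0.94). NFOL, MFOL and MOL together made up 29.4% and 33.5% of the lineage in WT and 30.8% and 31.5% in KO. Within these post-mitotic stages, the 2 later ones made up 17.9% and 35.8% in WT and 26.2% and 30.7% in KO, a log2 difference of 0.18 (-0.79 to 1.15).

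Microglia, the resident immune cells that prune synapses at this age, differed more between the sexes than between the genotypes. They were 27.8% of the male and 19.5% of the female WT library, and 24.7% and 19.96% of the KO libraries. The limma difference was -0.09 (SE 0.307, -0.77 to 0.58, adjusted p 0.994), and it was 0.24 without the male WT library, 0.10 without the female KO library and -0.43 without the female WT library. Astrocytes as a share of astrocytes and microglia were 43.6% and 59.9% in WT and 48.6% and 58.6% in KO. Mitotic microglia (M-Microglia) were 56 and 37 nuclei in WT and 54 and 58 in KO, or 4.06% and 3.41% of all microglia in WT and 3.83% and 4.93% in KO.

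Perivascular macrophages (PVM), which sit along vessels and in the meninges, were 2.37% and 1.25% in WT and 1.96% and 2.57% in KO. The female WT library was the lowest of the 4, with 67 PVM against 108 to 144 in the others. In females the difference was 1.06 (counting interval 0.64 to 1.48) and in males -0.28 (-0.66 to 0.11). The estimate over both was 0.39 (SE 0.334, -0.34 to 1.12), and without the female WT library it was -0.08. Of PVM and microglia together, PVM were 7.56% and 5.82% in WT and 7.11% and 10.9% in KO, a log2 difference of 0.44 (-0.36 to 1.24) that was 0.10 without the female and 0.78 without the male KO library.

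Among vascular cells, endothelial cells (EC), which line the vessels, were more frequent in KO in both sexes. They were 2.50% and 2.03% of the male and female WT libraries (119 and 109 nuclei) and 3.86% and 2.52% of the KO libraries (212 and 141 nuclei). The female KO and male WT values were nearly equal. The limma difference was 0.48 (SE 0.295, -0.16 to 1.12, adjusted p 0.994), or odds of 1.4 times those in WT, and it was 0.16 without the male KO library and 0.80 without the female KO library. Pericytes (PC), the contractile cells around capillaries, were 2.18% and 1.56% in WT and 1.91% and 1.73% in KO, with a difference of -0.02 (-0.66 to 0.61). EC were thus 53.4% and 56.5% of EC and PC in WT and 66.9% and 59.2% in KO, higher in KO in both sexes, with a log2 difference of 0.49 (SE 0.358, -0.28 to 1.26, adjusted p 0.842). This ratio differed by 0.25 without the male KO library and by 0.73 without the female KO library, and edgeR, which models the share itself and not the odds, gave 0.20.

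The vascular and leptomeningeal cells (VLMC), fibroblast-like cells of the vessel wall and the meninges, fell in 3 classes. VLMC-Col15a1 were 6.94% and 5.21% in WT and 6.13% and 7.82% in KO, with a difference of 0.22 (-0.40 to 0.84). It was -0.19 in males (counting interval -0.42 to 0.03) and 0.62 in females (0.40 to 0.85), so the female libraries differed in the same direction in this class as in PVM. VLMC-Slc16a11 were 1.74% and 2.05% in WT and 2.20% and 2.41% in KO, above WT in both sexes, and their difference of 0.29 had an interval from -0.31 to 0.89. VLMC-Pia, named for the innermost layer of the meninges, were 2.58% and 3.14% in WT and 2.98% and 2.73% in KO, a difference of 0.00 (-0.66 to 0.66). Of all VLMC, 22.9% and 30.2% were VLMC-Pia in WT and 26.4% and 21.1% in KO.

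The neuron-like classes, a small remainder after a sort meant to leave neurons out, held the lowest p-value of the shares. NeuronLike-Slc17a6, named for the gene of the vesicular glutamate transporter VGLUT2, was 0.336% and 0.279% of the male and female WT libraries and 0.455% and 0.571% of the KO libraries, which is 16 and 15 nuclei against 25 and 32. The limma difference was 0.72 (SE 0.293, 0.08 to 1.36), or 1.65 times the odds in WT, with an unadjusted p of 0.0305 and an adjusted p of 0.519. NeuronLike-Gad1, named for an enzyme that makes the inhibitory transmitter GABA, was 2.33% and 2.46% in WT (111 and 132 nuclei) and 2.07% and 1.34% in KO (114 and 75 nuclei). Its difference was -0.53 (SE 0.40, -1.40 to 0.34, adjusted p 0.994), made up of -0.17 in males and -0.89 in females, and it was -0.21 without the female KO library.

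Set against each other, these classes gave the lowest p-value among the 10 ratios within lineages. NeuronLike-Gad1 was 87.4% and 89.8% of neuron-like nuclei in WT and 82.0% and 70.1% in KO. The log2 difference was -1.23 (SE 0.531, -2.38 to -0.09) with an unadjusted p of 0.0366 and a limma adjusted p of 0.366. With sex as a replicate block the adjusted p was 0.0299, and it was 0.0411 without either VGlut2 WT library and 0.0687 with the 4 Ip3r2 libraries alone. The male difference was -0.59 (counting interval -1.56 to 0.38) and the female difference -1.88 (-2.84 to -0.92). The difference was -0.76 without the female KO library and -1.71 without the male KO library. By the design as set, 0 of the 10 ratios passed limma (0%), 1 had an unadjusted p under 0.05, and edgeR called 0 with 0 under an unadjusted 0.05. For the Gad1 ratio edgeR, which models the share itself and not the odds, gave a log2 difference of -0.22 (edgeR adjusted p 0.937). Of the ratios, 7 had opposite signs in the sexes.

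Medians of UMIs per nucleus were compared in the 15 classes of which every library held 20 nuclei or more. Microglia had the smallest values, with 1182 and 1161 UMIs in the male and female WT libraries and 1247 and 1100.5 in KO. MOL had the largest, with 5406.5 and 5489 in WT and 5811 and 5494 in KO. Astrocytes had 2394 and 2598 in WT and 2719 and 2360.5 in KO, and OPC 2458.5 and 2455 in WT and 2543 and 2367 in KO. In 14 of 15 classes the median of male KO exceeded that of male WT, while that of female KO exceeded female WT in 4, so the direction followed the library as a whole. The exception in males was PC, with 1501 and 1450 UMIs in WT and 1382 and 1203 in KO, lower in both sexes. In 4 classes the median was higher in KO in both sexes. NeuronLike-Gad1 nuclei had 1732 and 1748 UMIs in WT and 1774.5 and 1944 in KO, and M-OPC 3094 and 3126 in WT and 3462 and 3204.5 in KO. PVM had 1302 and 1323 in WT and 1352 and 1399 in KO, and MOL, with the values above, were the last of these.

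By limma, 0 of 15 classes passed the test for UMIs (0%), with 0 under an unadjusted p of 0.05 and a lowest adjusted p of 1.0. The log2 difference was 0.02 for astrocytes (-0.37 to 0.41) and -0.19 for PC (-0.59 to 0.20), and it ran from -0.19 to 0.10 over the classes. For PC it was -0.09 without the female KO library, and -0.06 with library means in place of medians. Every class was given the same standard error of 0.196, so the intervals do not reflect how variable each class was. For the median number of detected genes, 0 of 15 classes passed (0%), with a lowest adjusted p of 0.996 and 0 at an unadjusted p under 0.05. Detected genes were higher in KO in 14 classes in males and in 3 in females.

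**Figure D4:**
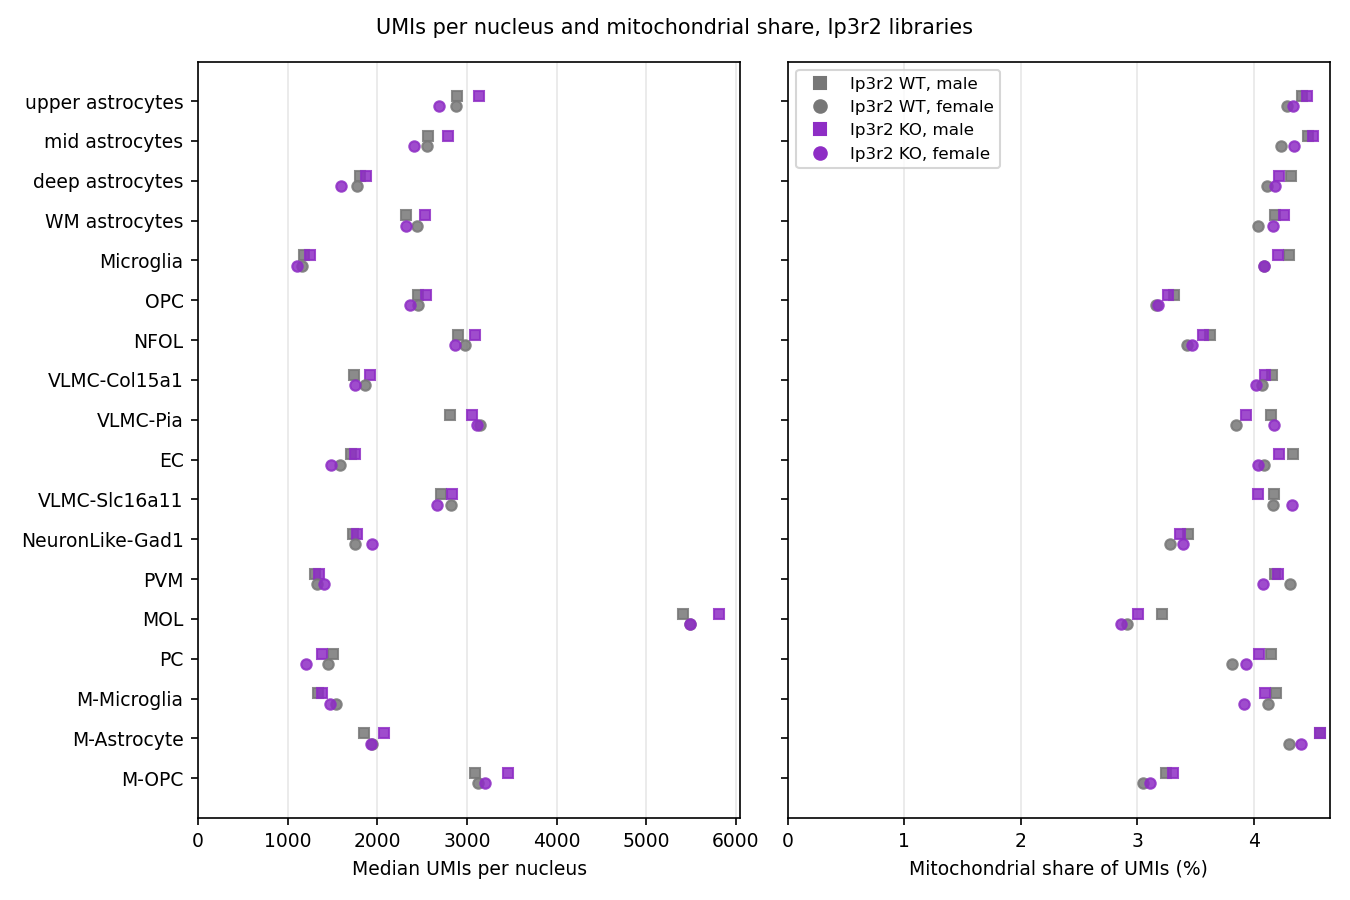
Median UMIs per nucleus (left) and mitochondrial share of the UMIs in percent (right) for the 4 astrocyte groups and 14 other classes, 1 point for each Ip3r2 library; gray is WT, purple KO, squares male and circles female. The classes differ far more than the genotypes: median UMIs run from 1100.5 in microglia to 5811 in MOL, and the mitochondrial share is lowest in MOL among the classes drawn (MFOL, with 19 nuclei in the male WT library, are left out).

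Since more UMIs give more detected genes, genes were also compared at equal UMIs, as the distance of each nucleus from a curve of genes on UMIs fitted for its class over all 8 libraries. In astrocytes this distance was 1.74% and 2.06% in the male WT and KO libraries, -0.214% in the female WT library and -1.99% in the female KO library. The same order of the sexes returned in nearly every class. Both male libraries lay above both female libraries in 14 of 15 classes, and in 14 of 15 the lowest value was that of female KO. The male KO library was below the male WT library in 8 of 15. At 1500 to 2500 UMIs the median astrocyte had 1110 genes in the male WT library, 1098 in the female WT, 1132 in the male KO and 1065 in the female KO. In that window the order did not hold in every class. OPC kept it, with 1189 and 1159.5 genes in the male and female WT libraries and 1210 and 1111 in KO. Microglia had 1095 and 1092 in WT and 1073 and 1084 in KO, with male KO the lowest. In NeuronLike-Gad1 the female KO library was the highest, with 1112 genes against 1046 to 1065.

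Again 0 of 15 classes passed limma (0%), with 0 at an unadjusted p under 0.05 and a lowest adjusted p of 0.968. For astrocytes the log2 difference was -0.01 (-0.06 to 0.04). MOL had the largest difference, -0.05 (-0.10 to 0.01), with distances of 5.06% (male WT), 1.28% (male KO), -1.27% (female WT) and -4.01% (female KO). With sex as a replicate block this class passed, with the same estimate and a limma adjusted p of 0.00226. The distance was lower in KO than in WT in both sexes. MOL nuclei of the male WT library numbered 50, and the estimate was -0.00 without that library and -0.09 without the female WT library. Such fits set 1 sex of WT against both sexes of KO.

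**Figure D5:**
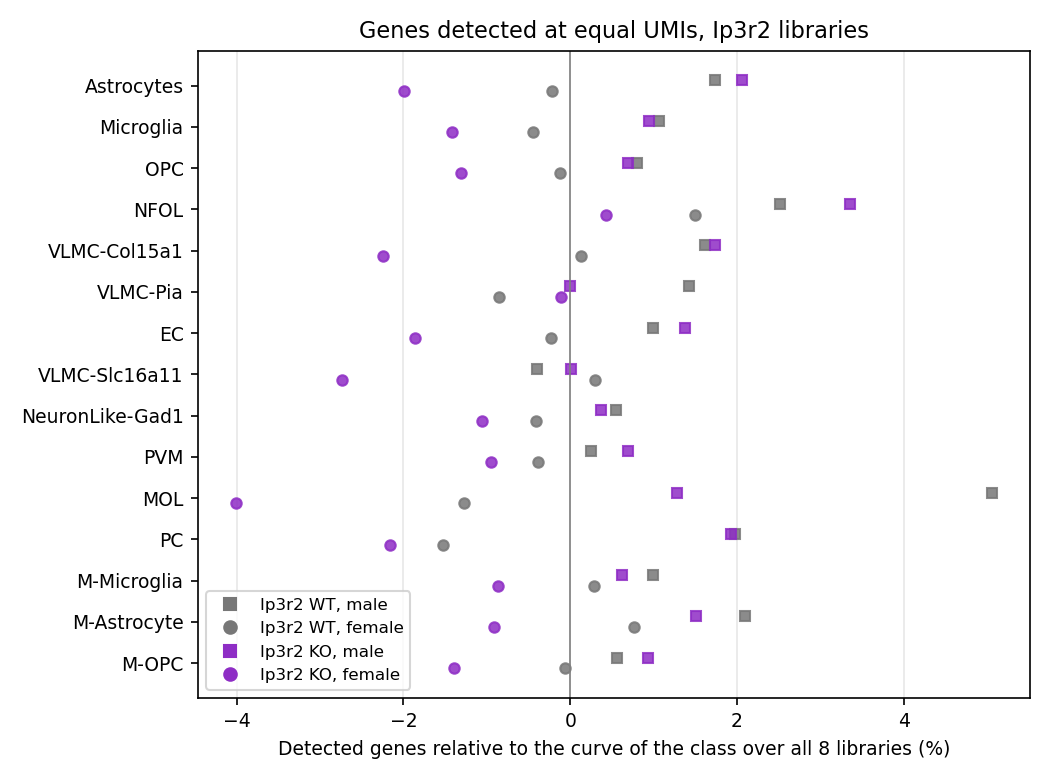
Detected genes at equal UMIs in the 15 classes, as the mean distance in percent from the curve of genes on UMIs of the class over all 8 libraries; gray is WT, purple KO, squares male and circles female libraries. The male libraries lie to the right of the female ones in 14 classes, and the female KO library is the leftmost point in 14.

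The mitochondrial share of the UMIs is named as in the deposited data. Which genes the authors took for it is not stated, so whether it counts transcripts of mitochondria was not tested. This share was 3.94% and 3.73% in the male and female WT libraries and 3.89% and 3.81% in the KO libraries. In astrocytes it was 4.39% and 4.23% in WT and 4.42% and 4.31% in KO, a log2 difference of 0.02 (-0.07 to 0.11). OPC were lower, at 3.32% and 3.16% in WT and 3.26% and 3.18% in KO, and MOL lower still, at 3.21% and 2.91% in WT and 3.01% and 2.86% in KO. MFOL, too few for the test, had 2.73% and 2.83% in WT and 2.92% and 2.73% in KO. MOL had the largest difference, -0.06 (-0.15 to 0.03), and were lower in KO in both sexes (-0.09 in males and -0.03 in females). As for UMIs, each class was given the same standard error (0.0441), so these intervals do not reflect how variable each class was. The MOL difference was 0.01 without the male WT library and -0.13 without the female WT library. These 2 fits set 1 sex of WT against both sexes of KO. By limma 0 of 15 classes passed (0%), with a lowest adjusted p of 0.955 and 0 at an unadjusted p under 0.05. The share was higher in KO in 3 of 15 classes in males and in 10 of 15 in females, the reverse of the order for UMIs.

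Whether KO nuclei lay apart from WT nuclei of their own class was described from the authors' UMAP, a map on which nuclei of like expression lie near each other, drawn after batch correction of all samples. For each nucleus the 15 nearest of its class were taken, and the number from another library was divided by the number its share would give, so that 1 means full mixing. In astrocytes the value was 1.03 between the male KO and male WT libraries and 0.912 between the female KO and female WT libraries. It was 0.972 between the WT libraries and 0.945 between the KO libraries, so KO and WT mixed more than the libraries of 1 genotype did in males and less in females. Nuclei of the female KO library had 1.17 times the expected number of neighbours from their own library, against 1.01 to 1.08 in the other 3. Within the upper group the values between KO and WT of 1 sex were 1.05 and 0.969 for males and females, within the mid group 0.999 and 0.943, within the deep group 1.02 and 1.0 and within the WM group 1.07 and 0.942. OPC gave 1.01 and 0.985, and microglia 0.990 and 1.02. These values describe positions on the map, with no test.

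The other model of the series, in which VGlut2 is deleted from thalamic neurons, gives a second pair of genotypes processed in the same way, and the difference between the effects of the 2 deletions was tested directly. Median UMIs were 1882 to 2242 in the Ip3r2 libraries and 1343 to 1876 in the VGlut2 libraries. By limma, 0 of 17 classes, 0 of 4 layer groups and 0 of 10 ratios were called for a difference between the models, with lowest adjusted p-values of 0.712, 0.978 and 0.619, and with 1, 0 and 0 under an unadjusted 0.05. The 1 class was NeuronLike-Slc17a6, whose log2 difference was larger in the Ip3r2 model by 0.94 (SE 0.414, 0.04 to 1.85, unadjusted p 0.042). The Gad1 share of neuron-like nuclei gave -1.53 (-3.15 to 0.09). For EC the difference between the models was 0.51 (-0.40 to 1.42), which on the odds scale allows from 0.759 to 2.68 times. For UMIs, genes, genes at equal UMIs and mitochondrial share 0 of 15 classes were called in each, with 0 under an unadjusted 0.05, and edgeR called 0 of the shares, layer groups and ratios, again with 0 under an unadjusted 0.05.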

How the data were processed

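Nuclei of 8 libraries were given in 1 deposited table, 1 line per nucleus, and the 4 Ip3r2 libraries were described here (2 per genotype, 4767 to 5602 nuclei each). Cell Ranger and the mm10 build are named in the submitters' processing notes. The authors kept barcodes with 200 genes or more, removed doublets with Scrublet in each sample, joined all samples with Scanorama, clustered with the Leiden method in Scanpy, named clusters from markers and clustered the astrocytes again. UMIs and detected genes per nucleus are counts as deposited, not normalized. The deposited mitochondrial value is a fraction of the UMIs: times the UMI count it was whole within 0.001 in 44021 of 44021 nuclei. Upper-Astro-1 and Upper-Astro-2 of the table are called upper and mid, since their numbers in the VGlut2 WT and cKO libraries (1114 and 1065, 1289 and 1163) are those the study gives for these groups.

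Nuclei were tallied by class and library, and log2 odds of (nuclei + 0.5) were fitted with limma (version 3.58.1, R version 4.3.3), with 1 mean per group over all 8 libraries, which then share 1 spread, and Benjamini-Hochberg adjustment with a threshold of 0.05. The same fit was used for layer groups within astrocytes, 10 ratios within lineages (the PVM ratio counts mitotic microglia as microglia), log2 medians of UMIs and genes, genes at equal UMIs (residuals from a quadratic in log2 UMIs) and log2 mitochondrial share, the last 4 in classes of which every library held 20 nuclei or more. Tests were two-sided. Alternatives were edgeR (version 4.0.16), a sex block, other denominators, filters and summaries, and leaving out each library. The scripts were tested on simulated data. Intervals of single libraries and same-sex differences are 95% and cover counting error only. All classes are described, with full statistics for astrocytes, layer groups, OPC, microglia, any class past the threshold and the 3 largest differences among classes of at least 20 nuclei. Classes, lists and tests were chosen with earlier results of these data known. Gene expression was not analysed here.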

Additional observations from a re-analysis of the deposited data

Results flagged for a closer look

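In 3 groups of nuclei the male and the female libraries differed between KO and WT in opposite directions, each by more than its counting error. They were 1 of the 17 classes and 2 of the 4 layer groups, which are shares of the same astrocytes, with 0 of the 10 ratios. Counting error covers the sampling of nuclei in 1 pair of libraries and not the variation between mice or pools. For MOL the log2 odds were higher in KO by 0.754 in males and lower in females (-0.682). For upper astrocytes the difference was 0.455 in males and -1.43 in females, and for deep astrocytes -0.547 in males and 0.478 in females. The female WT library had the highest shares of MOL and upper astrocytes, of the 4, and the male WT library the highest share of deep astrocytes. With 1 library per genotype and sex, whether the effect of genotype differs between the sexes was not tested, and sex cannot be told apart from the pool of mice or the day of processing. Groups of 2 libraries are too small to look for a single outlying library.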

How the results depend on the processing

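The limits of these data are 2 libraries per genotype, 1 of each sex, and p-values that rest on a spread shared with the VGlut2 libraries. Counting error is small in the large classes and wide in those with few nuclei (15 to 32 NeuronLike-Slc17a6 per library). As a centred log ratio over the classes the astrocyte difference was -0.0501 in place of 0.04. With sex as a replicate block, 1 ratio (NeuronLike-Gad1 of neuron-like nuclei) and 1 class for genes at equal UMIs (MOL) passed, and the block changed no other call. The study processed WT and KO samples as day pairs and numbers its replicates, but the sources do not tie number, day and sex to each other, and the labels give sex alone, so the block pairs libraries by sex. Over the 17 classes the female-minus-male gaps of WT and KO had a Pearson r of 0.275, given as a description. Leaving out each of the 8 libraries in turn gave, in log2, -0.248 to 0.3367 for the astrocyte share, -0.4292 to 0.2405 for microglia, -0.079 to 0.8601 for PVM, -1.125 to 0.1479 for upper, -0.7232 to 0.6542 for deep and -0.2594 to 0.3146 for WM astrocytes. It gave -0.0793 to 0.1247 for UMIs of astrocytes, -0.0399 to 0.0185 for their genes at equal UMIs, -0.008 to 0.0435 for their mitochondrial share and -0.1293 to 0.0103 for that of MOL. When an Ip3r2 library is left out, 1 sex of its genotype is set against both sexes of the other. The shift then also holds the gap between the male and female libraries. The number of ratios passed ran from 0 to 1, and for the difference between the models from 0 to 1 in ratios (the Gad1 ratio, without the female VGlut2 WT library), UMIs (PC without the male and NeuronLike-Gad1 without the female VGlut2 cKO library) and genes (NeuronLike-Gad1, without the female VGlut2 cKO library). Counts of calls kept their value in 65 cases under another setting and changed in 2, and with a library left out in 106 and 6. Among single classes and ratios, 131 values under another setting and 175 with a library left out kept their direction and their side of the threshold, 1 and 15 changed sign, and 2 and 2 passed the threshold. Many of these directions could not change. Leaving out a VGlut2 library, adding the sex block or using the Ip3r2 libraries alone gives the same Ip3r2 estimate by construction. The 15 changes of sign with a library left out therefore all came from leaving out an Ip3r2 library. MOL had too few nuclei between 1500 and 2500 UMIs to be compared there.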

Other observations

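As a share of the UMIs of a library, the classes stood in another order than by nuclei. Microglia held 16.2% and 9.66% of the UMIs of the male and female WT libraries and 13.7% and 10.4% in KO, less than their share of nuclei in all 4. MOL held 2.63% and 6.66% in WT and 4.50% and 4.67% in KO, more than their share of nuclei in all 4. NeuronLike-Gad1 nuclei held 2.18% and 2.05% in WT and 1.72% and 1.46% in KO, and VLMC-Slc16a11 2.25% and 2.44% in WT and 2.67% and 3.05% in KO. In the latter pair of classes, 2 of the 15 compared, the genotypes did not overlap, and in 9 of the 15 KO and WT differed in opposite directions in the sexes.

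Nuclei with few genes were not spread evenly over the classes. Under 500 genes were detected in 3.4% and 2.48% of microglia in the male and female WT libraries and in 2.06% and 5.46% in KO, and in 4.81% and 4.76% of PC in WT and 4.76% and 9.28% in KO. In astrocytes the values were 0.488% and 0.447% in WT and 0.624% and 1.26% in KO. The female KO library had the highest value in these 3 classes, but not in EC, where 2.52% and 4.59% of nuclei in WT and 1.89% and 0% in KO were under 500 genes, nor in PVM, with 3.54% and 0% in WT and 0.926% and 0.694% in KO. Mitotic nuclei of all 3 kinds together were 2.87% and 2.83% of the WT and 2.77% and 2.73% of the KO libraries.

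Within a library the mitochondrial share varied among nuclei of 1 class somewhat more than the sampling of UMIs gives. In astrocytes the variance was 1.86 and 1.74 times the binomial one in the male and female WT libraries and 1.74 and 1.66 times in KO, in microglia 1.41 and 1.349 times in WT and 1.37 and 1.46 times in KO. Single astrocytes ran from 2.37% to 6.50%.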
